A study of Mus musculus with 20 samples.

Results

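Glutathione-using enzymes were followed at the RNA level in the mouse retina. The set held 10 of the 35006 genes counted in every library, taken by name as the genes of glutathione reductase (Gsr), the glutathione peroxidases (Gpx1, Gpx3 and Gpx4), glutaredoxin (Glrx), the cytosolic glutathione transferases (Gsta4, Gstm1, Gstm5 and Gstp1) and a microsomal glutathione transferase (Mgst1). All 10 passed the filter on low counts in every comparison.

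The study asked whether NACET, the ethyl ester of N-acetyl-L-cysteine and a cell-permeable cysteine donor, alters transcription in the young and the aged retina. Each of the 20 RNA-seq libraries came from 1 retina of a C57BL/6J mouse. For 5 days the treated mice drank water that supplied 50 mg/kg of NACET daily, and control mice drank water with no NACET. The 4 groups were young control (n = 4, all 119 days old), young NACET (n = 6, with 4 titled as 129 and 2 as 119 days), old control (n = 4, all 668 days) and old NACET (n = 6, with 2 mice each at 668, 581 and 574 days). Each young group held 2 mice labelled female and every old mouse was labelled male, but old control replicate 4 held 59555 counts of Xist, the RNA of the inactive X chromosome, which goes against its label. Age therefore could not be separated fully from sex or cohort, and a mouse gave only 1 library. Libraries held 17700500 to 31081959 counts on genes.

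The tissue label was checked with cell type markers. The 8 rod photoreceptor genes summed to 6.27 to 9.54% of gene counts in every library. Lens or corneal markers stood out in 5 libraries. The 8 corneal epithelium markers summed to 231, 555 and 296 CPM (counts scaled to the gene counts of the library) in young NACET replicates 3, 4 and 5 and to 606 CPM in old control replicate 2, against at most 80.7 CPM in the other 16 libraries. The 9 lens markers summed to 2777 CPM in old NACET replicate 1 and to 0.871 to 4.90 CPM in the other 19. Fitted changes that rest on these libraries are given with and without them, except in the cohort and covariate fits. Old control replicate 2 also had the highest blood marker sum, 91.7 CPM, with 21.8 CPM in the next library. Young control replicate 4 had the highest sums of retinal pigment epithelium and connective tissue markers, 331 and 20.3 CPM. It and old NACET replicate 3, the highest libraries for Gpx3, are not among the 5. In whole retina, fewer cells of a type and less RNA per cell cannot be told apart.

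Glutathione is a cysteine-containing tripeptide and the main small thiol of cells. Glutathione peroxidases use it to reduce hydrogen peroxide and lipid hydroperoxides, transferases attach it to reactive electrophiles such as lipid aldehydes, glutaredoxin uses it to reduce protein disulfides, and glutathione reductase returns the oxidized form to the reduced one with NADPH. Photoreceptors, with their high oxygen use and polyunsaturated membranes, depend on these reactions, and several of the genes are known targets of NRF2, a transcription factor that binds antioxidant response elements.

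Because these elements are where NRF2 would meet the genes, promoter windows of 250 bases before to 50 bases after each start (RefSeq, GRCm38.p6) were searched on both strands. A window was at hand for 8 of the 10 genes (not for Gsr or Gsta4), in 14 alternative windows. The response element core was written as TGACNNNGC or TGAGNNNGC, and the related AP-1 site, TGACTCA, was searched separately, although it can overlap the core. The stretches below show the matches in capitals, on the strand of the gene, so that a match on the opposite strand appears as its reverse complement.
Gstp1, chr19:4037967-4037996, minus strand: tccaacgtgtTGAGTCAGCatccggggcgg
Gstp1, chr19:4037902-4037931, minus strand: gcctacgcgtGCGTCCTCActctgagtacc
Gstm5, chr3:107895802-107895831, plus strand: caccgcccacTGACCACGCggagggcgggt
Gstm5, chr3:107895648-107895677, plus strand: agttttatgtGCCAGCTCAactgtgcaaca
Mgst1, chr6:138140461-138140490, plus strand: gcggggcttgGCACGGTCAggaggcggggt
Glrx, chr13:75839777-75839806, plus strand: taggaagtacTGACTCAtaccaaaatgaac

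A core of either form was found in 3 of the 14 windows, 1 each of Gstp1, Gstm5 and Mgst1. Over all 32851 promoter windows of the table, 27.8% held one, so the cores were not rare letters. TGACTCA was found in 4 of the 14 windows, 1 each of Gstp1 and Gstm5 and 2 of Glrx that overlap almost fully, and in 5.2% of all windows. The first Gstp1 stretch holds both, since the reverse complement of TGACTCA lies inside its core. In Gstm5, TGACTCA lay apart from the cores, at chr3:107895668-107895697 in ctgtgcaacaTGACTCAcgcttcccgggta. The windows of Gpx1, Gpx3, Gpx4 and Gstm1 held none of these letters. A match is a description of the sequence and does not show binding.

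Levels of different genes were compared per kb of exon. Gstp1, which encodes a pi-class transferase, had the highest level, with a median of 46.3 CPM per kb over the 20 libraries. Gstm5, a mu-class transferase, followed with 30.4, then Gpx1 with 29.0 and Gpx4 with 27.8 CPM per kb. Gstp1 stood above Gstm5 in 20 of 20 libraries, whereas Gstm5 stood above Gpx1 in 15 and Gpx1 above Gpx4 in 14, so that these 3 neighbours were not ordered in every library. Gsta4 came next at 19.8 CPM per kb and was above Gsr in all 20. Gsr (6.91), Gstm1 (6.18), Glrx (4.83), Gpx3 (3.85) and Mgst1 (2.04 CPM per kb) formed the lower part of the order. In this lower part, Gsr exceeded Gstm1 in 16 libraries, Gstm1 exceeded Glrx in 19, Glrx exceeded Gpx3 in 14 and Gpx3 exceeded Mgst1 in 20.

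**Figure D1:**
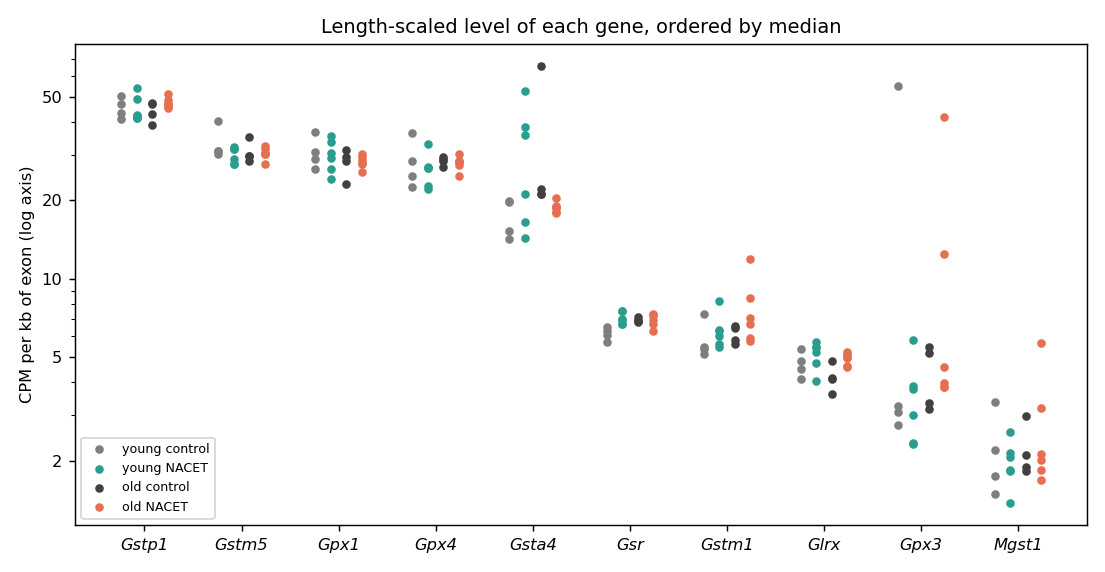
Level of each gene per kb of exon, in CPM per kb on a log axis, with 1 point per library coloured by group and genes ordered by their median over 20 libraries. Gstp1 lies above Gstm5 in 20 of 20 libraries, and single Gsta4, Gpx3, Gstm1 and Mgst1 points stand far above the rest of their gene.

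These levels carry a limit of read mapping, since a read that aligned to more than 1 place was not counted. Of the 32-base words in the exons of Gstp1, 79.9% were also found elsewhere in the mm9 genome, as were 46.2% for Glrx, 42.2% for Gstm1 and 38% for Gpx4. For the other 6 genes the share was at most 0.654%. The levels of Gstp1, Glrx, Gstm1 and Gpx4 are therefore uncertain against the other genes, whereas a change between groups compares the same positions. For Gstm5, 13.9% of exon bases lie opposite an exon of 4933431E20Rik, whose reads could not be separated without strand.

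Across the 20 libraries, the genes differed widely in how much they varied. The SD of log2 CPM was 0.10 for Gsr, and only 19.7% of 16993 genes varied less. It was 0.14 for Gstm5 and Gstp1, 0.17 for Gpx1, 0.18 for Glrx and 0.19 for Gpx4, near the median of 0.16 over all genes. Gstm1 (0.27), Mgst1 (0.44), Gsta4 (0.59) and Gpx3 (1.23) varied more, and 99.1% of genes varied less than Gpx3. In these 4 genes a few libraries stood apart, as the plot of levels by library shows.

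**Figure D2:**
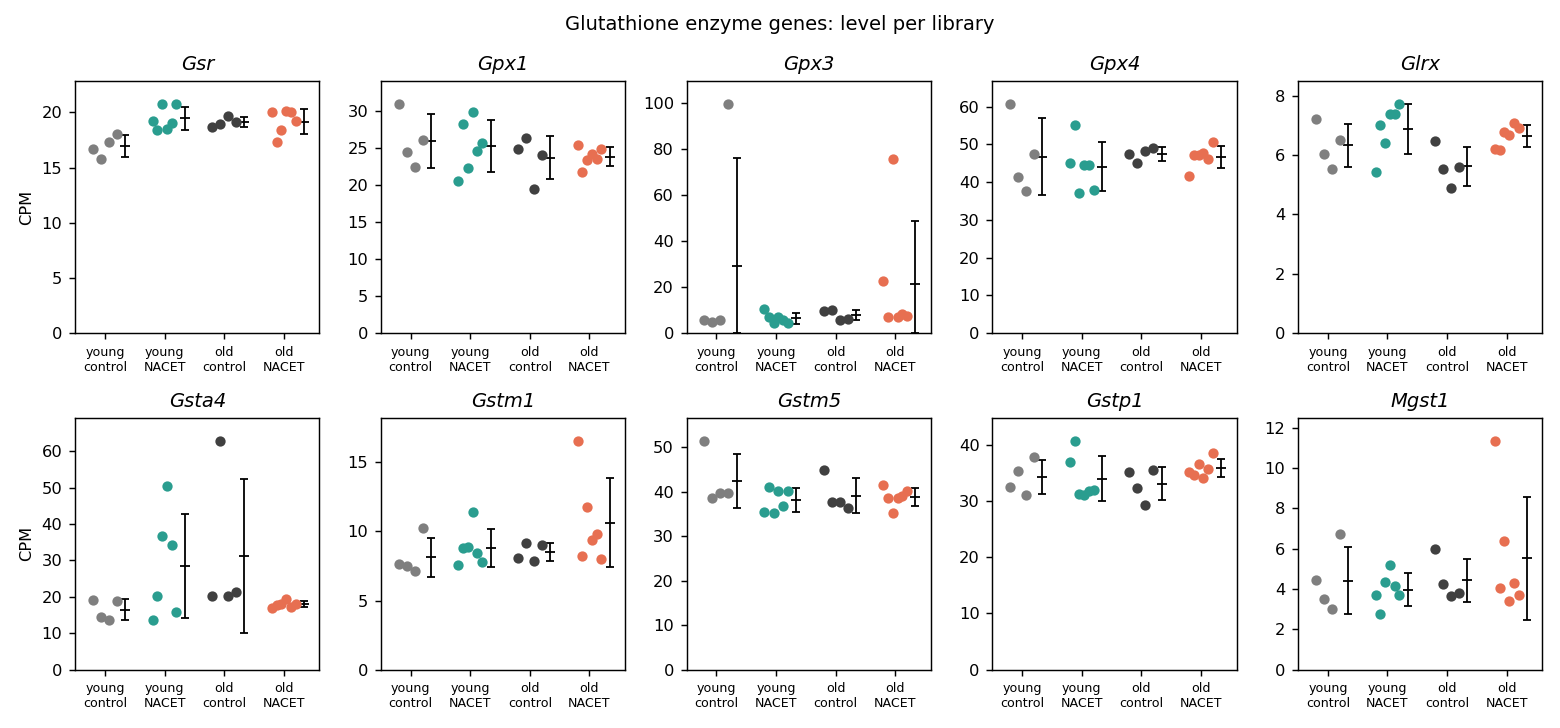
Level of each of the 10 genes in CPM, with 1 point per library in the 4 groups; the black mark and bar give the group mean and SD, and the bar is drawn no lower than 0. Gsr is lower in young controls (15.7 to 18.0 CPM) than in old controls or young NACET mice, while Gpx3 reaches 99.6 CPM in 1 young control and Gsta4 reaches 62.9 CPM in 1 old control.

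None of the 10 genes passed an adjusted p of 0.05 in any comparison (edgeR quasi-likelihood test with Benjamini-Hochberg adjustment over all genes tested). In aging, old control against young control, 0 of 10 were called, where 1.42% of all 16484 genes tested were. For NACET in old mice the count was 0 of 10 against a background of 0.543%, and with NACET in young mice it was 0 of 10 against 0% of all genes. Between old and young mice that both received NACET, 0 of 10 were called while 4.88% of all genes were. The interaction, which tests whether the NACET effect differed between old and young mice, called 0 of 10, and 0% of all genes. DESeq2 called 0 of 10 in each of the 5 comparisons as well.

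Before adjustment, 2 of 10 genes had p under 0.05 in aging (background 16.3%), 3 with NACET in old mice (14.4%), 3 with NACET in young mice (4.36%), 2 between the ages under NACET (21.1%) and 3 in the interaction (6.19%). Gpx3 and Gsta4 were among them each time, joined by Glrx in old mice, by Gsr in young mice and by Gsr in the interaction. Every CPM of one group lay outside the range of the other for 2 genes in aging (background 11.3%), 1 gene with NACET in old mice (3.57%), 1 with NACET in young mice (0.723%) and 0 between the ages under NACET (4.07%). In each pairwise comparison the interval of Gpx3 was the widest of the 10 and those of Gsta4 and Mgst1 came next, as the plot of fitted changes shows. These comparisons share groups, so their values are not independent of each other. The median log2 change of the 10 genes was −0.07 in aging, 0.05 with NACET in old mice, −0.04 with NACET in young mice and 0.0023 between the ages under NACET, beside medians over all genes of −0.0068, 0.0020, −0.0045 and −0.0013.

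The NACET comparisons were repeated within cohorts. Among 668-day mice only (2 NACET, 4 control) the changes of Gsta4, Gpx3 and Glrx were −0.86, 0.91 and 0.13 (adjusted p = 0.676, 0.575 and 0.841), and those of Gstm1 and Mgst1 were 0.52 and 0.80 (adjusted p = 0.583 and 0.580). Old NACET replicate 1, the library with lens markers, is 1 of these 2 NACET mice. The 4 controls include old control replicate 2, a library with corneal markers and with Gsta4 at 62.9 CPM. Over all old mice the Gsta4 change was −0.83 with that library and −0.20 without it. The 581-day and 574-day cohorts held no controls and gave no value of their own. Among mice titled 119 days (2 NACET, 4 control) the changes of Gsr, Gsta4 and Gpx3 were 0.24, 0.61 and −2.56 (adjusted p = 1 for each), and the 129-day mice were all treated. The 2 NACET mice titled 119 days, replicates 5 and 6, are labelled female, against 2 of the 4 controls. Replicate 5 is a library with corneal markers, and the controls include young control replicate 4, the highest library for Gpx3. Replicate 6 carries a batch tag of 129 days, so its cohort is uncertain. With the batch tag as a covariate over all young mice the changes were 0.15, 1.04 and −2.41 (adjusted p = 1 for each). In both cohorts 0 of the 10 genes were called, as were 0 of all genes tested, so these counts say nothing of the 10. With labelled sex as a covariate, the aging change of Gpx3 turned from −1.92 to 0.52 (SE 0.81), while those of Gsr and Gsta4 were 0.19 and 0.86. Young control replicate 4, at 99.6 CPM of Gpx3, is 1 of the 2 young controls labelled female. Without that library alone the Gpx3 change was 0.46, so this fit cannot separate labelled sex from that library. The Gsta4 value of this fit includes old control replicate 2. Without old control replicate 2, and with no covariate, the aging change of Gsta4 was 0.26.

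**Figure D3:**
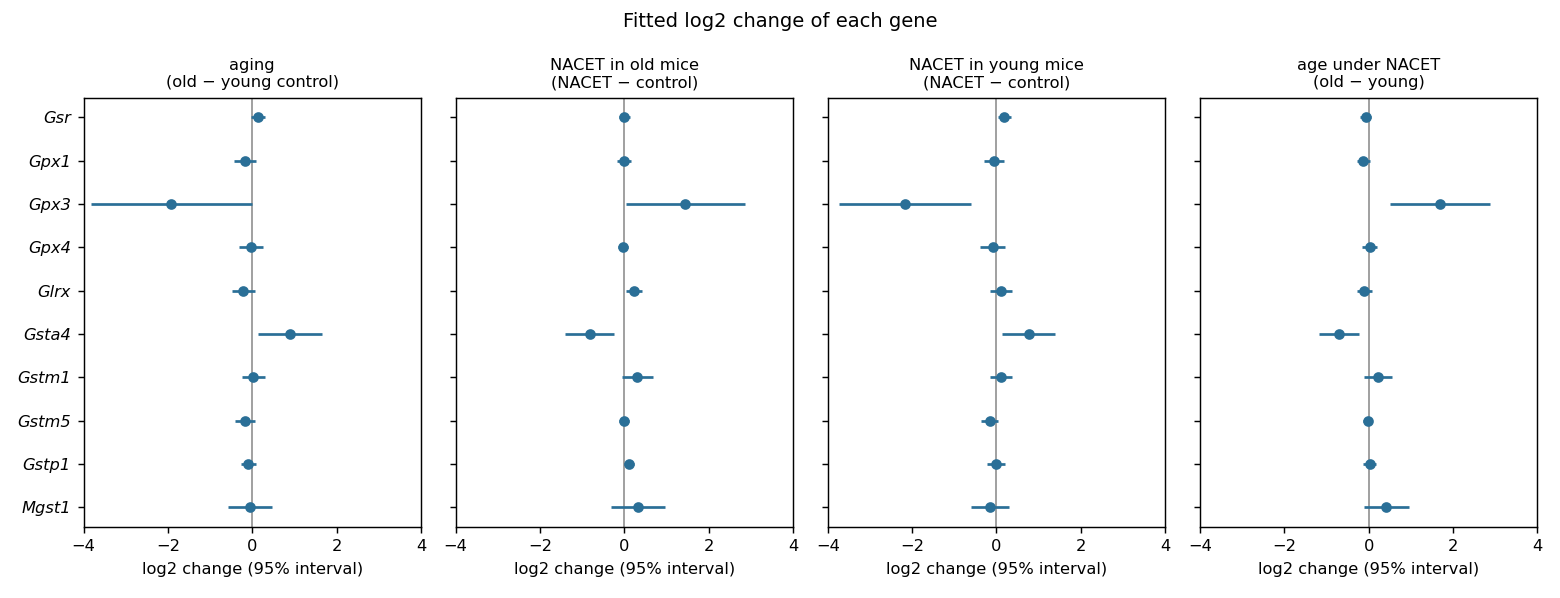
Fitted log2 change of each gene (point) with its 95% interval (line) in the 4 pairwise comparisons, the first group minus the second; the vertical line marks no change, and intervals narrower than the point are hidden by it. Gpx3 runs from −2.17 with NACET in young mice to 1.69 between the ages under NACET, while Gpx1, Gpx4, Gstm5 and Gstp1 lie between −0.18 and 0.11 in all 4.

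Gsr, at chr8:34762995-34808635 on the plus strand of mm9, encodes the enzyme that regenerates reduced glutathione. Its level was 16.7, 15.7, 17.3 and 18.0 CPM in the young controls and 18.4, 19.2 and 20.8 CPM (lowest, median and highest) in the 6 young NACET mice. The old controls held 18.7, 19.0, 19.7 and 19.1 CPM, and the old NACET mice 17.3, 19.6 and 20.1 CPM. The young controls were the low group, since none of their 4 values reached the lowest young NACET or old control value.

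With NACET in young mice, the log2 change of Gsr was 0.19 (SE 0.08, 95% interval 0.02 to 0.35, adjusted p = 1), and the groups did not overlap. In aging the change was 0.13 (interval −0.04 to 0.29, adjusted p = 0.435), again without overlap. In old mice given NACET the groups overlapped, and the change was −0.01 with an interval of −0.14 to 0.12. Without old control replicate 4, whose Xist goes against its label, the aging change was 0.12. The interaction for Gsr was −0.20 (SE 0.09, adjusted p = 0.763). Leaving out any 1 library or the 5 libraries with lens or corneal markers kept the young NACET change between 0.14 and 0.24, the upper value being that without the 5 libraries.

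The 3 peroxidases differed in behaviour. Gpx1, at chr9:108241607-108242671 (plus strand), encodes the cytosolic peroxidase that reduces hydrogen peroxide. It was at 31.0, 24.5, 22.4 and 26.1 CPM in young controls and at 20.5, 25.2 and 29.9 CPM in young NACET mice. Old controls held 24.9, 26.3, 19.5 and 24.1 CPM and old NACET mice 21.7, 23.9 and 25.4 CPM. All 4 groups overlapped. Its change was −0.18 in aging (95% interval −0.44 to 0.08, adjusted p = 0.497), −0.0041 with NACET in old mice (−0.17 to 0.16) and −0.06 with NACET in young mice (−0.30 to 0.19). Without young control replicate 1, the highest library for Gpx1, the aging change was −0.07.

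Gpx4, at chr10:79509911-79519184 (plus strand), encodes the peroxidase that acts on phospholipid hydroperoxides in membranes and protects against ferroptosis. Young controls held 60.7, 41.4, 37.5 and 47.3 CPM, young NACET mice 37.2, 44.6 and 55.3 CPM, old controls 47.4, 44.9, 48.2 and 49.1 CPM and old NACET mice 41.5, 47.2 and 50.6 CPM. The groups overlapped throughout, and the young groups spread more widely than the old ones (SD 10.1 and 6.51 against 1.78 and 2.97 CPM). The highest values, 60.7 and 55.3 CPM, were those of young control replicate 1 and young NACET replicate 2. These libraries had the lowest shares of reads on no exon, 14.3 and 14.1%, against 16.2 to 20.5% in the others. The part of this in the spread was not tested. The NACET change of Gpx4 in old mice was −0.03, with an interval of −0.14 to 0.09 (adjusted p = 0.861). In aging the change was also −0.03, with a wider interval of −0.32 to 0.26.

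Gpx3, at chr11:54715955-54723879 (plus strand), encodes the secreted, plasma-type peroxidase. It was at 5.57, 4.95, 5.88 and 99.6 CPM in young controls, and at 4.20, 6.15 and 10.5 CPM in young NACET mice. Old controls held 9.41, 9.94, 5.75 and 6.02 CPM, and old NACET mice 22.7, 6.98, 75.7, 6.97, 8.28 and 7.22 CPM in replicates 1 to 6. Young control replicate 4 and old NACET replicate 3 stood far above all others, old NACET replicate 1 came next, and the remaining 17 libraries lay between 4.20 and 10.5 CPM.

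The fitted changes of Gpx3 followed these libraries. Aging gave −1.92 (SE 0.87, adjusted p = 0.303), and the sign turned to 0.46 (SE 0.20, adjusted p = 0.350) without young control replicate 4. NACET in young mice gave −2.17 (SE 0.73, adjusted p = 1), which turned to 0.22 without that same library. With NACET in old mice the change was 1.44 (SE 0.66, adjusted p = 0.331), and 0.40 without old NACET replicate 3. Between the ages under NACET it was 1.69 (SE 0.56, adjusted p = 0.093), and 0.63 without old NACET replicate 3. The interaction of 3.61 (SE 1.13, adjusted p = 0.390) became 1.23 without young control replicate 4 and 2.57 without old NACET replicate 3.

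The gene whose log2 CPM was most like that of Gpx3 over the 20 libraries, out of all genes tested, was Optc, which encodes opticin, a proteoglycan of the vitreous made by the ciliary body. Pearson's r was 0.96 and Spearman's rho 0.77, and r was 0.81 without the 2 libraries farthest from the median of Gpx3. Optc was at 41.8 CPM in young control replicate 4, 25.9 CPM in old NACET replicate 3 and 7.44 CPM in old NACET replicate 1, the same order as Gpx3. In the other 17 libraries it was at 1.21 to 3.19 CPM. Young control replicate 4 also had the highest sum of the 12 retinal pigment epithelium markers, 331 CPM, whereas old NACET replicate 3 had the lowest, 43.0 CPM. The 12 markers summed to 53.8 to 331 CPM in young controls, 110 to 219 in young NACET, 115 to 273 in old control and 43.0 to 140 CPM in old NACET mice, and none of them was at 0 in any library. The part of such material in the Gpx3 values was not tested.

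Glrx, at chr13:75977316-75987599 (plus strand), encodes the cytosolic glutaredoxin. Young controls held 7.22, 6.04, 5.53 and 6.51 CPM and young NACET mice 5.43, 7.19 and 7.70 CPM. Old controls held 6.47, 5.53, 4.87 and 5.61 CPM, and old NACET mice 6.16, 6.73 and 7.06 CPM. Among old mice, 3 of 4 controls lay below every NACET mouse, and the fourth, at 6.47 CPM, fell inside the NACET range. The old mice given NACET had a Glrx change of 0.23 (SE 0.09, 95% interval 0.04 to 0.42, adjusted p = 0.243). In young mice it was 0.11 (interval −0.15 to 0.37, adjusted p = 1), and in aging −0.22 (interval −0.49 to 0.06, adjusted p = 0.419). The interaction of 0.12 (SE 0.14, adjusted p = 0.962) had an interval of −0.18 to 0.42.

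Among the transferases, Gsta4, at chr9:78039773-78057155 (plus strand), encodes the alpha-class enzyme that conjugates 4-hydroxynonenal, an aldehyde from lipid peroxidation. Young controls held 19.0, 14.5, 13.6 and 18.9 CPM, and young NACET mice 13.7, 20.2, 36.7, 50.4, 34.2 and 15.8 CPM in replicates 1 to 6. Old controls held 20.2, 62.9, 20.2 and 21.2 CPM, and old NACET mice 17.1, 18.0 and 19.5 CPM. The 4 high values, 34.2 to 62.9 CPM, came from young NACET replicates 3, 4 and 5 and old control replicate 2, and the other 16 libraries lay between 13.6 and 21.2 CPM.

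These 4 libraries were the same 4 in which corneal epithelium markers exceeded 200 CPM. Of the 8 markers, 5 (Krt5, Krt14, Dsp, Aldh3a1 and Pkp1) were higher in each of the 4 than in any other library, and Krt12, Krt15 and Perp overlapped. Krt12 was at 161 and 91.9 CPM in young NACET replicates 4 and 5 and at 169 CPM in old control replicate 2. In young NACET replicate 3 it was at only 1.20 CPM, while the other 16 libraries reached 20.0 CPM. The corneal name is therefore least certain for young NACET replicate 3. By group the sum of the 8 ran from 20.8 to 30.6 CPM in young controls, 18.6 to 555 in young NACET, 30.2 to 606 in old control and 16.0 to 45.4 CPM in old NACET mice. Krt14 and Krt15 were at 0 in some of the other 16 libraries. The most similar gene over the 20 libraries was Evpl, which encodes envoplakin of stratified epithelia (r 0.92, rho 0.57, and r 0.84 without the 2 farthest libraries). Evpl was at 19.4 to 45.8 CPM in the 4 libraries and at most 13.0 CPM in the rest.

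With all libraries, the change of Gsta4 was 0.89 in aging (SE 0.34, adjusted p = 0.230) and −0.83 with NACET in old mice (SE 0.27, adjusted p = 0.173), in both cases with no overlap between groups. It was 0.76 with NACET in young mice (SE 0.29, adjusted p = 1), −0.70 between the ages under NACET (SE 0.23, adjusted p = 0.0848) and −1.59 in the interaction (SE 0.45, adjusted p = 0.240). Between the ages under NACET, Gsta4 passed the threshold when young NACET replicate 1 or replicate 6, both without corneal markers over 200 CPM, was left out (adjusted p = 0.0259 and 0.0364). Without the 5 libraries with lens or corneal markers, a choice made after the data were seen, the 5 changes became 0.26, −0.18, 0.04, 0.05 and −0.22. In these 15 libraries Gsta4 averaged 16.5 ± 2.85 (SD, n = 4), 16.6 ± 3.31 (n = 3), 20.6 ± 0.580 (n = 3) and 18.2 ± 0.842 CPM (n = 5) in young controls, young NACET mice, old controls and old NACET mice, respectively. The 3 remaining old controls, at 20.2, 20.2 and 21.2 CPM, lay above all young controls and all old NACET mice, with adjusted p = 0.436 in aging and 0.342 with NACET in old mice. No share of all genes without overlap is at hand for these smaller groups. Corneal markers summed to 30.2, 42.6 and 80.7 CPM in these 3 old controls and to 20.8 to 30.6 CPM in young controls. The part of such material in these values was not tested.

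**Figure D4:**
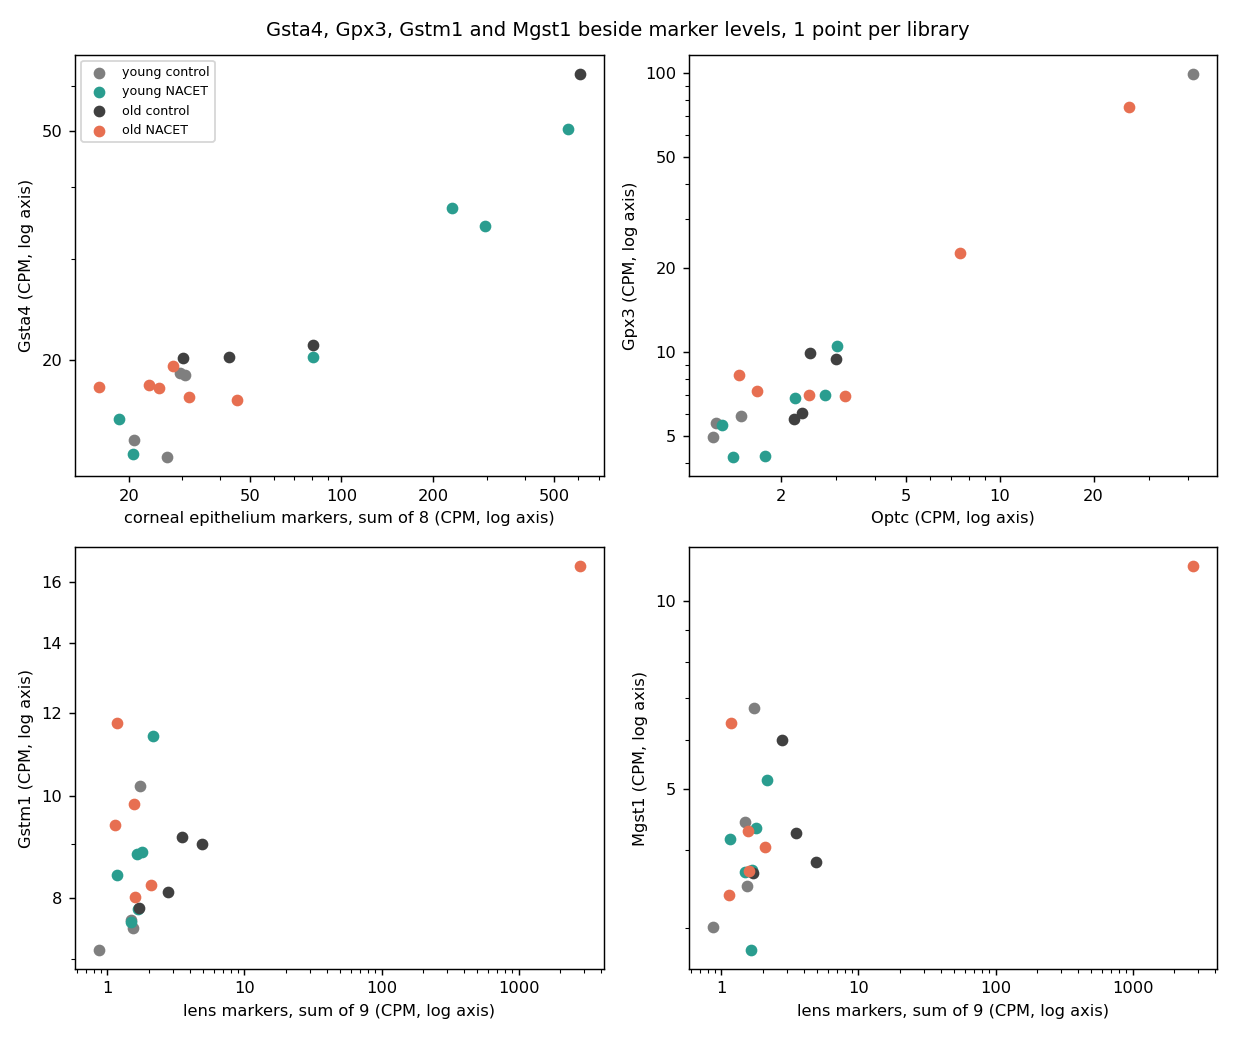
Gsta4, Gpx3, Gstm1 and Mgst1 in CPM against the sum of corneal epithelium markers, Optc and, in both lower panels, the sum of lens markers, on log axes, with 1 point per library coloured by group. The 4 libraries with corneal sums of 231 to 606 CPM are those with Gsta4 at 34.2 to 62.9 CPM, the 3 highest Optc libraries are the 3 highest for Gpx3, and the library with 2777 CPM of lens markers is the highest for Gstm1 and Mgst1.

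Gstm1, a mu-class transferase at chr3:107815173-107820891 (minus strand), was at 7.63, 7.49, 7.14 and 10.2 CPM in young controls and at 7.59, 8.61 and 11.4 CPM in young NACET mice. Old controls held 8.11, 9.14, 7.83 and 9.01 CPM, and old NACET mice 16.6, 8.23, 11.8, 9.38, 9.84 and 8.01 CPM. Mgst1, the microsomal transferase at chr6:138088837-138105276 (plus strand), which also reduces lipid hydroperoxides, was at 4.43, 3.50, 3.01 and 6.74 CPM in young controls and at 2.77, 3.94 and 5.17 CPM in young NACET mice. For both genes the highest of the 20 libraries was old NACET replicate 1, and the groups overlapped.

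Mgst1 was at 5.98, 4.25, 3.67 and 3.82 CPM in old controls and at 11.4, 4.04, 6.39, 3.39, 4.29 and 3.70 CPM in old NACET mice. Old NACET replicate 1 was also the library with lens material, where all 9 lens markers were above every other library, among them Cryba1 at 1189 CPM and Crygs at 707 CPM. Outside it, the sum of the 9 was 0.871 to 1.72 CPM in young controls, 1.17 to 2.16 in young NACET and 1.70 to 4.90 CPM in old control mice, and Crygd was at 0 in all 19. Hmox1, the heme oxygenase gene and a classical NRF2 target that was looked at after its value was seen, was at 41.6 CPM there and at 2.40 to 4.52 CPM in the other 19.

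With NACET in old mice the change of Gstm1 was 0.30 (SE 0.17, 95% interval −0.07 to 0.67, adjusted p = 0.437) and 0.13 without that library. The change of Mgst1 was 0.32 (SE 0.30, interval −0.31 to 0.95, adjusted p = 0.675) and −0.02 without it. Between the ages under NACET, Gstm1 changed by 0.22 and Mgst1 by 0.42 (adjusted p = 0.429 and 0.361), and by 0.05 and 0.09 without it. In aging Gstm1 had 0.03 (interval −0.25 to 0.30) and Mgst1 −0.05 (interval −0.57 to 0.47). The most similar genes were Gstm2-ps1, a related sequence of the same family (r 0.85, and 0.59 without the 2 farthest libraries), and Ogn, which encodes the matrix proteoglycan osteoglycin (r 0.84, and 0.61). Ogn ranked the same 3 libraries first as Mgst1 did, with 16.5 CPM in old NACET replicate 1, 6.23 CPM in young control replicate 4 and 5.95 CPM in old NACET replicate 3, and at most 1.58 CPM in the rest. These were also the 3 highest libraries for Gpx3 and Optc. Lens markers summed to only 1.72 CPM in young control replicate 4 and 1.17 CPM in old NACET replicate 3.

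Gstm5, at chr3:107698739-107701604 (plus strand), and Gstp1, at chr19:4035411-4037921 (minus strand), showed little movement. Gstm5 was at 51.5, 38.7, 39.7 and 39.6 CPM in young controls, 35.3, 38.4 and 41.1 CPM in young NACET, 44.8, 37.8, 37.7 and 36.3 CPM in old control and 35.3, 38.8 and 41.5 CPM in old NACET mice. Gstp1 was at 32.6, 35.3, 31.0 and 37.9 CPM in young controls, 31.1, 31.8 and 40.7 CPM in young NACET, 35.2, 32.4, 29.2 and 35.5 CPM in old control and 34.2, 35.4 and 38.6 CPM in old NACET mice. All groups overlapped for both genes, and young control replicate 1 stood above the other 19 libraries for Gstm5.

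Gstm5 with NACET in old mice had an interval of −0.13 to 0.10 (change −0.01, adjusted p = 0.937), and Gstp1 one of −0.02 to 0.23 (change 0.11, adjusted p = 0.421). In young mice the intervals were −0.37 to 0.04 for Gstm5 (change −0.17) and −0.23 to 0.20 for Gstp1 (change −0.02). In aging they were −0.40 to 0.06 (change −0.17) and −0.27 to 0.08 (change −0.09). Without young control replicate 1, the Gstm5 change was −0.05 in aging and −0.04 with NACET in young mice. Gstm5, Gstp1 and Mgst1, the genes with a response element core in a window, had NACET changes of −0.01, 0.11 and 0.32 in old mice (Mgst1 −0.02 without the library with lens markers) and −0.17, −0.02 and −0.16 in young mice. The 5 genes whose windows held no core, Gpx1, Gpx3, Gpx4, Glrx and Gstm1, had −0.0041, 1.44, −0.03, 0.23 and 0.30 in old mice. Gpx3 was at 0.40 without old NACET replicate 3, and Gstm1 at 0.13 without old NACET replicate 1. In young mice Gpx1, Gpx3 and Gpx4 had −0.06, −2.17 and −0.09, and Gpx3 had 0.22 without young control replicate 4. Glrx and Gstm1 each had a fold of 1.08 in young mice. None of the 8 was called, and genes with and without a core were not compared in a test.

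Of the other genes most like a single enzyme, Gsr followed Snapin (r 0.76), Gpx1 followed Txnrd3 (r 0.86), which encodes thioredoxin-glutathione reductase, Gpx4 followed Gm14494 (r 0.94) and Glrx followed Gap43 (r 0.88), a growth cone gene of neurons. Gstm5 was most like Gm14586 (r 0.87) and Gstp1 most like Ift27 (r 0.85), which encodes a component of intraflagellar transport. Without the 2 libraries farthest from the median of the enzyme, r was 0.69 for Gsr, 0.77 for Gpx1 and 0.88 for Gpx4. It was 0.87 for Glrx, 0.68 for Gstm5 and 0.76 for Gstp1. Each partner had the highest r of all genes tested over 20 libraries that share depth and sequencing, so these values only describe likeness. Within the set, Gstm1 and Mgst1 had the highest Pearson correlation with all libraries in (r 0.78, rho 0.49). It was 0.55 without old NACET replicate 1 and 0.41 without the 2 libraries farthest from the median of Gstm1. Next came Gpx1 with Gstm5 (r 0.69, rho 0.52) and with Glrx (r 0.68, rho 0.57). Without the 2 libraries farthest from the median of Gpx1, these r were 0.47 and 0.48. Gpx3 and Mgst1 had r 0.67 (rho 0.43), which was 0.72 without old NACET replicate 1. Gpx3 and Gstm1 had r 0.60 (rho 0.52), and Gpx4 and Gstm5 had r 0.56 (rho 0.07). Gpx4 and Gstp1 had r 0.52 with a rho of 0.60.

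The wider glutathione system was described with 52 further genes in 7 lists, of which 41 passed the filter. Of these 41, 0 were called in aging, 0 with NACET in old mice and 0 with NACET in young mice (backgrounds 1.42, 0.543 and 0%). Between the ages under NACET 1 was called (background 4.88%), and in the interaction 0 (background 0%). An unadjusted p under 0.05 was found for 5 of the 41 in aging (12.2%, background 16.3%), 9 with NACET in old mice (22%, background 14.4%), 2 in young mice (4.88%, background 4.36%), 6 between the ages (14.6%, background 21.1%) and 4 in the interaction (9.76%, background 6.19%). The median log2 change of the 41 was −0.01, −0.03, 0.03 and −0.09 in the 4 pairwise comparisons.

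The called gene was Gsto1, an omega-class transferase with thioltransferase activity, which fell by 2.51 on the log2 scale in old against young NACET mice (SE 0.51, adjusted p = 0.00876). It was at 14.4, 83.1, 205, 236, 71.1 and 24.4 CPM in young NACET replicates 1 to 6, and at 10.0 (lowest), 20.6 (median) and 23.4 CPM (highest) in old NACET mice. In the libraries with corneal markers it was at 71.1 to 236 CPM, among them old control replicate 2, and in the other 16 at 10.0 to 83.1 CPM. Without the 5 libraries with lens or corneal markers its change was −1.18 (SE 0.38, adjusted p = 0.0915), so the call was lost, as it also was in the robust fit (adjusted p = 0.0549). With NACET in old mice its change was −2.10 (adjusted p = 0.0960), which became −0.60 without those 5 libraries and −0.59 without old control replicate 2. Leaving out old control replicate 1 made it a call (−2.42, adjusted p = 0.0443). In young mice the change was 1.81 (adjusted p = 1), and 0.49 without the 5 libraries. The interaction was −3.90 (adjusted p = 0.103), and −1.08 without the 5 libraries (adjusted p = 1). It passed with DESeq2 (adjusted p = 0.0407), without young NACET replicate 1 (0.0338) and without old control replicate 1 (0.0461), and its adjusted p ran from 0.0338 to 1 over the alternatives.

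With age the transferase with the smallest p was Gstt3, a theta-class gene, at 1.96, 2.30, 2.26 and 2.09 CPM in young controls and 3.21, 3.19, 3.28 and 3.20 CPM in old controls. These groups were fully apart, as they were for 11.3% of all genes tested, with a change of 0.53 (SE 0.13, adjusted p = 0.0725). Glrx2, the mitochondrial and nuclear glutaredoxin, behaved in the same way, at 47.1, 54.7, 52.2 and 51.2 CPM in young and 63.9, 61.1, 63.9 and 60.7 CPM in old controls. Its change was 0.23 (SE 0.05, adjusted p = 0.0584), and 0.16 between the ages under NACET (SE 0.05, adjusted p = 0.0557). In aging both passed the threshold in 1 fit of all 4 groups (adjusted p = 0.0197 for Gstt3 and 0.0139 for Glrx2) and with library totals only (0.0488 and 0.0380), and Glrx2 also with DESeq2 (0.00841). Over the alternatives the adjusted p in aging ran from 0.0197 to 0.430 for Gstt3 and from 0.00841 to 0.412 for Glrx2. Between the ages under NACET, Glrx2 passed with library totals only (adjusted p = 0.0119), with DESeq2 (0.0315), in the fit of all 4 groups (0.0288) and without old NACET replicate 5 (0.0323), in a range of 0.0119 to 0.214. In the NACET comparisons of old and young mice, the glutaredoxins with the smallest p were Glrx3 (0.15, adjusted p = 0.355) and Glrx2 (0.04, adjusted p = 1), and in the interaction Glrx3 (0.19, adjusted p = 0.927).

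In the remaining 5 lists, 0 genes were called in any comparison, and the gene with the smallest p of each is given here. Among NADPH-supplying enzymes these were G6pdx in aging (−0.14, adjusted p = 0.312), Me1 with NACET in old mice (−0.19, adjusted p = 0.170), Tkt in young mice (0.18, adjusted p = 1), Pgd between the ages under NACET (−0.14, adjusted p = 0.128) and Me1 in the interaction (−0.23, adjusted p = 0.727). For selenocysteine insertion, on which the selenium-containing Gpx1, Gpx3 and Gpx4 depend, they were Eefsec (−0.21, adjusted p = 0.231), Trnau1ap (−0.16, adjusted p = 0.136), Trnau1ap (−0.14, adjusted p = 1), Eefsec (−0.11, adjusted p = 0.387) and Sepsecs (−0.12, adjusted p = 0.915), in the same order. Eefsec, Trnau1ap and Sepsecs encode parts of the machinery that places selenocysteine at a stop codon.

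Among the other peroxidases, Gpx8 had the smallest p in the 4 pairwise comparisons, at −0.30, −0.15, −0.22 and −0.24 (adjusted p = 0.348, 0.575, 1 and 0.147), and Gpx7 in the interaction (−0.29, adjusted p = 0.969). The other membrane enzymes were led by Ptges in aging (0.27, adjusted p = 0.553), in old mice with NACET (−0.34, adjusted p = 0.340) and in the interaction (−0.36, adjusted p = 0.889), and by Mgst3 in young mice (0.01, adjusted p = 1) and between the ages (−0.13, adjusted p = 0.506). The aldehyde enzymes were led by Adh5 in aging (−0.11, adjusted p = 0.635), in young mice (−0.09, adjusted p = 1) and in the interaction (0.07, adjusted p = 0.977), by Hagh in old mice (0.05, adjusted p = 0.728) and by Ethe1 between the ages (−0.12, adjusted p = 0.479).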

How the data were processed

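Retinal RNA was sequenced as poly(A)-selected, single-end libraries. The authors aligned reads to mm9 with TopHat 2.1.0 (Bowtie) and deposited raw gene counts from HTSeq 0.11.2, made without strand and with the intersection-nonempty rule; the gene annotation is not given in the sources used here. Counts from HTSeq leave out reads that align to several places. A row with no gene name (0.000941 to 0.00218% of counts) and the summary rows were left out. CPM is the count scaled to the gene counts of the library. Libraries held 17700500 to 31081959 gene counts.

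Pairwise comparisons, and the interaction over all 20 libraries, used the edgeR 4.0.16 quasi-likelihood test on the counts (R 4.3.3, TMM scaling, the edgeR filter on low counts, Benjamini-Hochberg adjustment over all genes tested, call at adjusted p under 0.05). Intervals are 95% intervals of the fitted log2 change. The models were tested on simulated data with the same dispersion for every gene and no outlier libraries. That run therefore does not cover genes such as Gpx3. Log2 CPM used a prior count of 1. Exon lengths and positions come from GENCODE vM1 on mm9, promoter sequences from RefSeq.

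Groups came from the sample labels. Each mouse gave 1 library, and the 42 pairs of replicates differed by more than counting noise (chi-square per degree of freedom 2.52 to 32.2). Alternatives were other scaling, filters and tools (DESeq2 1.42.0), covariates for labelled sex, age and cohort, males only, a replicate block and each library left out. The 10 genes and the gene lists were chosen with earlier results of these data known. Every one of the 10 genes is named. Of the other lists, a gene is named where it was called, or else the gene with the smallest p of its list, and the most similar gene is the one with the highest Pearson r of log2 CPM over 20 libraries. The limit of 200 CPM for lens and corneal markers was set after the data were seen.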

Additional observations from a re-analysis of the deposited data

Results flagged for a closer look

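Of the 40 sets of values (10 genes in 4 groups), 6 held a library whose gap to its nearest neighbour was beyond Dixon's 95% critical value, where chance gives about 1 in 20. Gpx3 stood at 99.6 CPM in young control replicate 4, with the other 3 at 4.95 to 5.88 CPM, and at 75.7 CPM in old NACET replicate 3, with the other 5 at 6.97 to 22.7 CPM. Gsta4 stood at 62.9 CPM in old control replicate 2, with the other 3 at 20.2 to 21.2 CPM. Gstm1 stood at 10.2 CPM in young control replicate 4 (others 7.14 to 7.63 CPM) and at 11.4 CPM in young NACET replicate 4 (others 7.59 to 8.84 CPM). Gstm5 stood at 51.5 CPM in young control replicate 1 (others 38.7 to 39.7 CPM).

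Young control replicate 4 had the highest Optc and retinal pigment epithelium sum, and old NACET replicate 3 the second highest Optc. Old control replicate 2 and young NACET replicate 4 had the highest corneal marker sums, 606 and 555 CPM. Young control replicate 1 had the highest rod marker sum, 95405 CPM. The part of these materials in the values was not tested.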

How the results depend on the processing

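The count of called genes among the 10 enzymes stayed at 0 in aging (20 alternatives), NACET in old mice (23), NACET in young mice (25) and the interaction (31). Between the ages under NACET it was 0 in 22 of 24 alternatives and ranged from 0 to 1 as single libraries were left out, the 1 being Gsta4 without young NACET replicate 1 or 6. The replicate block changed no call among the 10; with it all genes called were 17 with NACET in old mice, 6 in young mice and 422 between the ages under NACET. Samples that share a number share only the number: the deviations of same-numbered libraries correlated at −0.16 to 0.12. Correlations over 0.1 were found for 0 of 4 pairs in aging, 0 of 4 with NACET in old mice, 2 of 4 in young mice and 1 of 6 between the ages under NACET, and 0, 0, 1 and 0 pairs correlated best with their own number. Of the group means, that of Gpx3 fell from 29.0 to 5.47 CPM without young control replicate 4 and from 21.3 to 10.4 CPM without old NACET replicate 3.

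Counts over all genes were less stable. Against 234 in aging they ran from 69 (labelled males only) to 724 (DESeq2). Against 90 with NACET in old mice they ran from 0 (668-day mice only) to 373 (DESeq2). Against 0 with NACET in young mice the highest was 8 (without young control replicate 4), against 795 between the ages under NACET the highest was 1312 (DESeq2), and against 0 in the interaction it was 88 (DESeq2). The cause was not tested.

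Changes that turned sign did so as follows. With labelled males only, aging gave Gpx3 0.52 and Mgst1 0.10, NACET in young mice gave Gpx3 0.44, Glrx −0.043, Gstp1 0.029 and Mgst3 −0.076, age under NACET gave Gpx4 −0.015 and Gstp1 −0.020, and the interaction gave Gpx7 0.11. With labelled sex as covariate the values were Gpx3 0.52 and Mgst1 0.10 in aging, Gpx4 −0.0066 and Gstp1 −0.013 in age under NACET and Mgst3 −0.019 in young mice. In libraries without Xist, chosen after seeing the data, they were Gpx3 0.62 and Mgst1 0.16 in aging, Gsr 0.0010 and Gpx1 0.011 with NACET in old mice, Gpx3 0.44, Glrx −0.043, Gstp1 0.029 and Mgst3 −0.076 in young mice, Gpx4 −0.015 and Gstp1 −0.020 in age under NACET and Gpx7 0.033 in the interaction. Labelled males only and libraries without Xist both leave out young control replicate 4, the highest library for Gpx3. With library totals only the values were Gpx4 0.022 and Mgst1 0.0023 in aging, Gsr 0.0020 and Gpx1 0.0046 with NACET in old mice and Gstm5 0.030 in age under NACET. With NACET in old mice, Gstm5 was 0.030 in 668-day mice only and 0.029 with cohort as covariate, and Hagh was −0.0043 and −0.0056. In young mice, Gstp1 was 0.011 with the replicate block, and Mgst3 was −0.10 in 119-day mice only, −0.10 with titled age and −0.12 with the batch tag as covariate.

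Without the libraries with lens or corneal markers, also chosen after seeing the data, aging gave Gstm1 −0.016, NACET in old mice Gpx1 0.042 and Mgst1 −0.030, NACET in young mice Gpx4 0.014 and Gstp1 0.13, age under NACET Gpx4 −0.036, Gsta4 0.051 and Gstp1 −0.11, and the interaction Gpx4 −0.030 and Gstp1 −0.024.

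Leaving out 1 library at a time turned the sign of these changes, given by their lowest and highest values. In aging they were Gpx3 (−2.28 to 0.46), Gpx4 (−0.12 to 0.14), Gstm1 (−0.027 to 0.15), Mgst1 (−0.19 to 0.22) and Adh5 (−0.18 to 0.012). For NACET in old mice they were Gsr (−0.036 to 0.019), Gpx1 (−0.080 to 0.060), Gpx4 (−0.054 to 0.0053), Gstm5 (−0.041 to 0.034) and Mgst1 (−0.017 to 0.46). In young mice they were Gpx1 (−0.12 to 0.058), Gpx3 (−2.53 to 0.22), Gpx4 (−0.18 to 0.077), Gstp1 (−0.077 to 0.033), Mgst1 (−0.30 to 0.11), Adh5 (−0.16 to 0.036), Mgst3 (−0.075 to 0.17) and Trnau1ap (−0.20 to 0.0047). In age under NACET they were Gpx4 (−0.020 to 0.11), Gstm5 (−0.051 to 0.0026) and Gstp1 (−0.017 to 0.085), and in the interaction Gpx1 (−0.061 to 0.11), Gpx4 (−0.11 to 0.15) and Adh5 (−0.050 to 0.14). No call of the 10 genes was lost or gained by these turns, and their cause was not tested. Single libraries held as few as 49 counts of Mgst1, 78 of Gpx3 and 89 of Glrx, against at least 324 of Gsr, so relative counting error was larger for those 3 genes; its part in their spread was not tested.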
